A study of Homo sapiens with 12 samples.

Results

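The 10 genes described here, *CD83*, *CD80*, *CD86*, *CD274*, *ICOSLG*, *CD48*, *CD58*, *SLAMF7*, *LAMP3* and *FSCN1*, encode surface molecules with which antigen-presenting cells signal to T cells and natural killer cells, together with markers of activated dendritic cells. They were taken by symbol from a count table of 58288 genes, and all 10 were found. The RNA came from HL-60/S4, a subline of the human leukemia cell line HL-60 that grows in suspension as promyelocytes and takes on a granulocytic form in all-trans retinoic acid (ATRA). Promyelocytes and granulocytes were each treated with water as the vehicle or with TNF-α, which makes 4 groups of 3 RNA-seq libraries. The dose was 16 ng/ml over 2 h, in growth medium with added calcium that the vehicle groups received too. Granulocytes had been held in 1 µM ATRA for 4 days, and every library came from cells at 8 passages. The groups are triplicate flasks of a single cell line, so the spread below is that between flasks of 1 line and not between donors. Because each cell type was its own experiment, effects of cell type and of experiment on a level cannot be told apart, and levels across cell types are described without a test.

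A T cell that meets its antigen needs a further signal from the presenting cell, and much of that signal comes from the B7 family. CD80 and CD86 bind CD28 and CTLA-4, ICOSLG binds ICOS, and CD274 (PD-L1) binds the inhibitory receptor PD-1. CD58 and CD48 are adhesion ligands of CD2 and CD244, and SLAMF7 is a self-binding receptor of the SLAM family. CD83, LAMP3 and the actin-bundling protein fascin (*FSCN1*) are established markers of dendritic cell maturation, a state in which cells extend processes and display costimulatory ligands. TNF-α is known as a maturation stimulus for dendritic cells and acts largely through NF-κB.

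The regions upstream of 3 genes are shown because they hold a match to a motif of interferon or NF-κB regulation beside a gene that responded. They are RefSeq sequences of build GRCh38.p14 on the plus strand, 5′ to 3′, ending at the last base before the RefSeq start, with the motif match in capitals. That of *CD274* ends 39 bases earlier, where another annotated transcript begins. For *CD83* the region of the downstream start, chr6:14117522-14117771, and for *CD86* that of the downstream start, chr3:122077534-122077783, hold matches to the NF-κB consensus. For *CD274* the region chr9:5450292-5450502 holds overlapping matches to the interferon response core GAAANNGAAA, read on the reverse strand.
CD83: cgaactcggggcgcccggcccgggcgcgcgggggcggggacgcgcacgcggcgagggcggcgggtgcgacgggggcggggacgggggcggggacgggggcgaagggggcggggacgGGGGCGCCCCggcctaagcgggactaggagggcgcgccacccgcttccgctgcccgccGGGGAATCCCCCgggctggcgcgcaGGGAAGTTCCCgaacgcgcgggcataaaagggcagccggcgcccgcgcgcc
CD86: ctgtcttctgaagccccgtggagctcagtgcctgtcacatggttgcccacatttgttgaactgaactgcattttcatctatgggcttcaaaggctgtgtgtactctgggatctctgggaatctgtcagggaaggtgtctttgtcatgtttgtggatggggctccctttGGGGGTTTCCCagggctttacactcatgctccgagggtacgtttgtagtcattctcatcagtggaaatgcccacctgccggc
CD274: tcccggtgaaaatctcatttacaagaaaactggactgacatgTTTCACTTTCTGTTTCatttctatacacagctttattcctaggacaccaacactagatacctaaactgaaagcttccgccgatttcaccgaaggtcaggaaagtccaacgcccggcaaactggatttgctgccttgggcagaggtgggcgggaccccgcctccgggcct

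Both strands were searched over the 250 bases upstream of each start, and overlapping matches were merged. The NF-κB consensus was found in 9.96% of 35116 promoters and the interferon core in 3.02%. In *CD83* the NF-κB matches lay 41 to 51, 65 to 76 and 125 to 134 bases before the start, and in *CD86* the match lay 72 to 82 bases before it. In *CD274* the interferon matches lay 193 to 208 bases before the start. The upstream start of *CD83* had no NF-κB match but held the TATA box letters TATAAA. They lay 231 to 236 bases before the start, and on the reverse strand 238 to 243 bases before it. On either strand these letters were found in 10.7% of promoters. The AP-1 letters TGANTCA, present in 6.57% of promoters, were not found in the windows searched for these genes. In all, 7 of the 10 genes had a promoter entry, with 9 starts between them, and *SLAMF7*, *LAMP3* and *FSCN1* had none. Of the 7, *CD58*, *CD48*, *CD80* and *ICOSLG* held neither the NF-κB consensus nor the interferon core. The upstream start of *CD86* held neither as well. A match is a description of letters, and these data carry no measurement of binding.

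Total counts per library ran from 22829189 to 31895061, so that 3 counts corresponded to 0.0945 to 0.136 CPM (counts scaled to a common library size). Levels below are CPM scaled by TMM over the 12 libraries, and responses are log2 fold changes of TNF-α over vehicle with their standard error (SE) and the Benjamini-Hochberg adjusted p of edgeR's quasi-likelihood test over all genes, with 0.05 as the threshold. The labelled cell types differed in their marker genes. The 9 granulocytic differentiation markers summed to 296 to 315 CPM in vehicle promyelocytes and to 5198 to 5468 CPM in vehicle granulocytes, and the 7 promyelocyte markers to 7901 to 8742 and 2415 to 2634 CPM. Both sums also moved with TNF-α, and their part in the results was not tested. The granulocytic markers summed to 5665 to 6037 CPM in TNF-α granulocytes, where 3 increased, 4 decreased and 2 were not called. Among them *NCF1* went from a mean of 1217 CPM to 1949 CPM there. *CEBPE*, with the largest log2 fold change of the 9 in granulocytes, fell from a mean of 211 CPM to 91.9 CPM. The promyelocyte markers summed to 6506 to 7405 CPM in TNF-α promyelocytes, where 5 decreased and 2 were not called. Over all genes tested, 24.4% increased and 24.8% decreased with TNF-α in granulocytes, and 6.65% decreased in promyelocytes. 1 library stood apart. The 12 genes of the MHC class II pathway summed to 8.95 CPM in TNF-α granulocyte replicate 2 and to at most 3.80 CPM in the other 11. Results are given without that library where they change. In bulk RNA, fewer cells expressing a gene and less RNA per cell cannot be told apart.

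TNF-α raised most of these genes in both cell types and lowered *CD86* in both. In promyelocytes 7 of the 10 genes had enough counts to be tested, and 6 increased, where 8.15% of all 16250 genes tested increased. The 1 gene that decreased was *CD86*, where 6.65% of all genes decreased. In granulocytes 9 were tested and 8 increased, against 24.4% of all 16944 genes, while *CD86* again decreased, against 24.8%. Over those tested, their median log2 fold change stood at 1.01 in promyelocytes (all genes -0.01) and at 4.20 in granulocytes (all genes -0.00). The TNF-α and vehicle libraries did not overlap for any of the 7 genes tested in promyelocytes, where 30.9% of all genes did not overlap, nor for any of the 9 in granulocytes, where 55.1% did not. *CD80*, *SLAMF7* and *LAMP3* in promyelocytes and *CD80* in granulocytes were too low for the test and are given as counts. *CD274* in promyelocytes and *LAMP3* in granulocytes passed the filter on low counts through their TNF-α libraries, so their place among the genes tested already required a high value there. *CD274* in granulocytes, with 25, 8 and 17 vehicle counts, also needed at least 1 TNF-α library to pass.

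**Figure D1:**
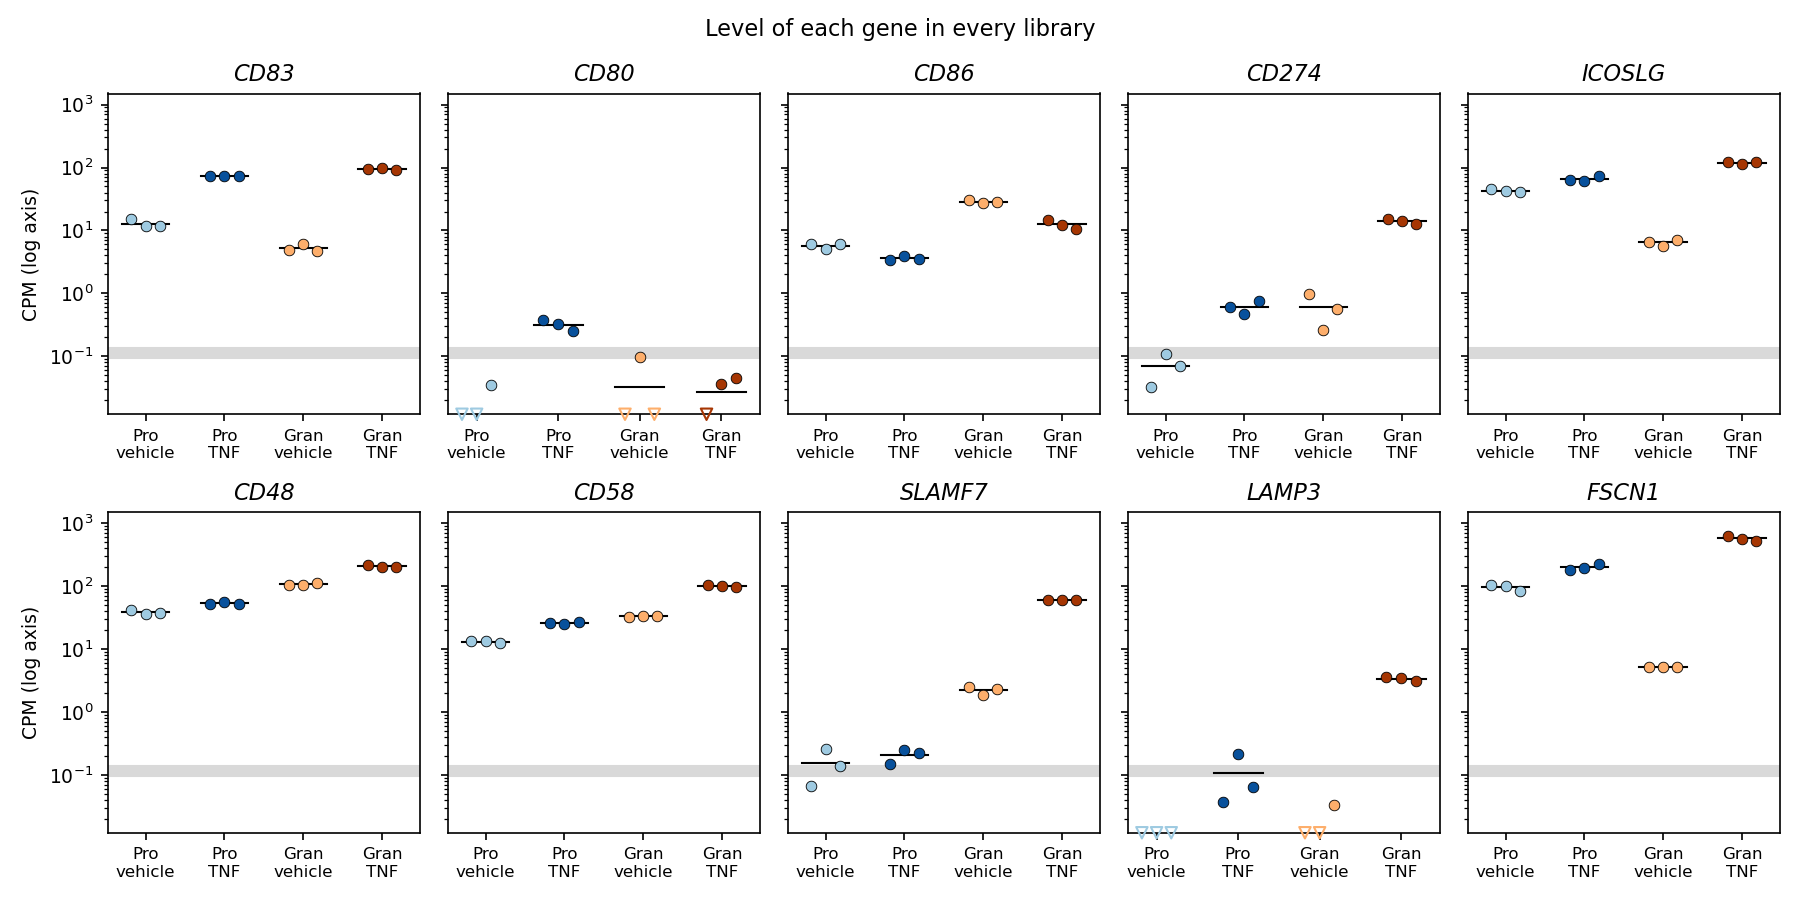
Level of the 10 genes in every library, in CPM on a log axis shared by all panels. Each point is 1 library, the line is the mean of 3, open triangles at the foot are libraries with 0 counts, and the grey band is the CPM of 3 counts (0.0945 to 0.136). *FSCN1* in granulocytes moves from 5.20 CPM with vehicle to 572 CPM with TNF-α, while *CD86* is the panel in which both TNF-α groups lie below their vehicle groups.

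Among the B7 ligands, *CD80* (ENSG00000121594, chr3:119524293-119559602, minus strand) was near absent. Vehicle promyelocytes had 0, 0 and 1 counts, and TNF-α promyelocytes had 10, 9 and 8. The ratio of the summed and depth-scaled counts was 27.1, with an exact 95% interval of 4.47 to 1111 that covers counting error only. Granulocytes had 0, 3 and 0 counts with vehicle and 0, 1 and 1 with TNF-α, all at or under the floor of 3 counts, so no fold is given. When genes of every count were fitted, the *CD80* response in promyelocytes had an adjusted p of 0.00164, and that in granulocytes an adjusted p of 0.928.

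*CD86* (ENSG00000114013, chr3:122055366-122121139, plus strand), the other ligand of CD28, fell in both cell types. In vehicle promyelocytes it stood at 6.14, 5.11 and 6.04 CPM, and in TNF-α promyelocytes at 3.35, 3.89 and 3.56 CPM. In vehicle granulocytes it stood at 30.5, 27.6 and 28.1 CPM, and in TNF-α granulocytes at 14.8, 12.4 and 10.7 CPM. Vehicle granulocytes were thus the highest group and TNF-α promyelocytes the lowest, and no neighbouring groups overlapped. The log2 fold change was -0.66 (SE 0.148, adjusted p = 0.00405) in promyelocytes and -1.20 (SE 0.0856, adjusted p = 1.14e-14) in granulocytes, a 1.58-fold and a 2.30-fold decrease. The granulocyte response was lower by a log2 value of -0.51 (SE 0.166, adjusted p = 0.0266), but this difference missed the threshold in 5 of the 12 fits that left out 1 library, those without vehicle promyelocyte replicate 2 (adjusted p = 0.0796), TNF-α promyelocyte replicate 2 (0.0803), vehicle granulocyte replicate 1 (0.0552) and TNF-α granulocyte replicates 2 (0.0543) and 3 (0.0723).

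*CD274* (ENSG00000120217, chr9:5450503-5470566, plus strand), the PD-1 ligand, rose from a very low level. Vehicle promyelocytes had 1, 3 and 2 counts and TNF-α promyelocytes 16, 13 and 24, a ratio of 8.88 with an exact 95% interval of 3.82 to 25.3 for counting error (log2 fold change 3.08, SE 0.562, adjusted p = 0.000561). *CD274* passed the filter on low counts in promyelocytes through its TNF-α libraries alone, so the call there was bound to the high value. In granulocytes the level was 0.962, 0.265 and 0.570 CPM with vehicle and 15, 14.4 and 12.5 CPM with TNF-α. The vehicle granulocyte libraries overlapped the TNF-α promyelocyte libraries, at 0.602, 0.464 and 0.756 CPM, and the TNF-α granulocyte libraries lay above all others. The response in granulocytes was 4.56 (SE 0.191, adjusted p = 1.25e-21), a 23.5-fold increase. The difference of the responses was 1.5, with an interval of ±1.96 SE from -0.21 to 3.21, and did not pass the test (adjusted p = 0.231). The adjacent gene *PDCD1LG2*, which encodes the second ligand of PD-1 and starts 40003 bases beyond the end of *CD274*, had at most 1 count in any library.

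*ICOSLG* (ENSG00000160223, chr21:44222991-44240966, minus strand), the ICOS ligand, had its lowest level in vehicle granulocytes and its highest in TNF-α granulocytes. In promyelocytes it stood at 45.8, 42.5 and 40.2 CPM with vehicle and at 63.8, 60.6 and 72.4 CPM with TNF-α. In granulocytes it stood at 6.62, 5.72 and 7.0 CPM with vehicle and at 123, 112 and 123 CPM with TNF-α. The order of the groups was therefore TNF-α granulocytes, TNF-α promyelocytes, vehicle promyelocytes and vehicle granulocytes, with no overlap between neighbours. The log2 fold change was 0.64 (SE 0.0710, adjusted p = 1.36e-06) in promyelocytes, against 4.20 (SE 0.0727, adjusted p = 6.69e-34) in granulocytes, and the responses differed by 3.59 (SE 0.112, adjusted p = 2.35e-18).

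The *ICOSLG* reads are uncertain in their origin, because the annotation holds a near-identical copy, ENSG00000277117, on the same chromosome (chr21:5022493-5040666, plus strand). Of the 2453 windows of 150 bases in the exons of the copy, 1969 (80.3%) were found letter for letter within *ICOSLG*, and 68.5% of 7324 such windows of *ICOSLG* were found within the copy. The copy ran at a similar level per kb of exon, 6.31, 10.0, 0.809 and 16.1 CPM per kb in vehicle promyelocytes, TNF-α promyelocytes, vehicle granulocytes and TNF-α granulocytes, against 5.28, 8.09, 0.795 and 14.7 CPM per kb for *ICOSLG*. When the counts of both were summed, promyelocytes gave a log2 fold change of 0.66, granulocytes 4.22, and the responses differed by 3.61. None of the 10 genes shared exon bases on its own strand with another annotated gene.

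**Figure D2:**
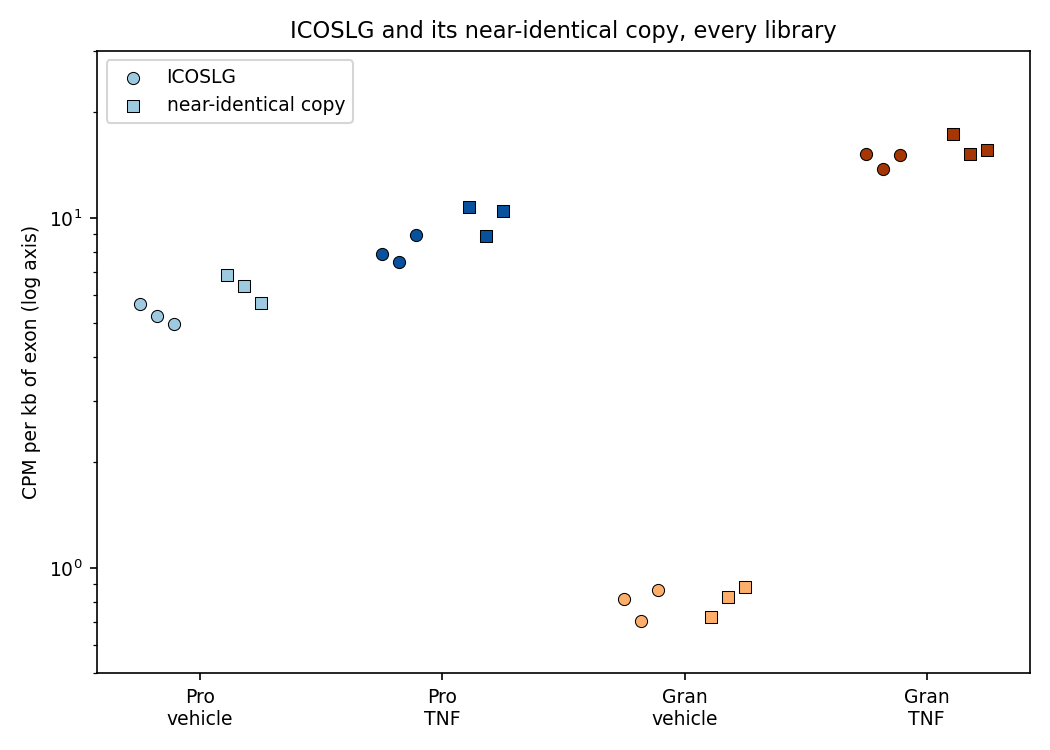
Level of *ICOSLG* (circles) and of its near-identical copy (squares) in every library, in CPM per kb of exon on a log axis, with the 4 groups along the bottom. Both lie lowest in vehicle granulocytes (means 0.795 and 0.809) and highest in TNF-α granulocytes (means 14.7 and 16.1).

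*CD83* (ENSG00000112149, chr6:14117256-14136918, plus strand), a membrane protein of the immunoglobulin superfamily, rose in both cell types with little spread between libraries. In promyelocytes it stood at 15.1, 11.7 and 11.6 CPM with vehicle and at 72.3, 73.4 and 72.5 CPM with TNF-α. In granulocytes it stood at 4.96, 6.12 and 4.73 CPM with vehicle and at 95.3, 96.8 and 90.2 CPM with TNF-α. Vehicle granulocytes were lower than vehicle promyelocytes and TNF-α granulocytes higher than TNF-α promyelocytes, with no overlap. The log2 fold change was 2.53 (SE 0.0822, adjusted p = 7.21e-15) in promyelocytes and 4.14 (SE 0.0772, adjusted p = 7.68e-33) in granulocytes, a 5.77-fold and a 17.6-fold increase, and the responses differed by 1.65 (SE 0.127, adjusted p = 1.67e-10). Since *CD83* rose where *CD86* fell, the ratio of their levels per kb of exon moved in every library. *CD83* exceeded *CD86* 2.62-fold to 3.35-fold in vehicle promyelocytes and 25.7-fold to 29.5-fold in TNF-α promyelocytes. In vehicle granulocytes *CD86* was the higher, by 3.31-fold to 4.50-fold, and with TNF-α *CD83* was the higher, by 8.81-fold to 11.5-fold.

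The ligands *CD48* and *CD58* were expressed in every group and rose by smaller factors. *CD48* (ENSG00000117091, chr1:160678746-160711851, minus strand), a lipid-anchored ligand of CD244 and CD2, stood at 41.4, 36.5 and 36.6 CPM in vehicle promyelocytes and at 51.0, 54.8 and 52.5 CPM with TNF-α. In granulocytes it stood at 105, 103 and 113 CPM with vehicle and at 217, 203 and 203 CPM with TNF-α. All 4 groups were separate, with both granulocyte groups above both promyelocyte groups. The log2 fold change was 0.49 (SE 0.0657, adjusted p = 1.60e-05) in promyelocytes and 0.94 (SE 0.050, adjusted p = 1.90e-18) in granulocytes, and the responses differed by 0.49 (SE 0.0837, adjusted p = 7.07e-05). *CD58* (ENSG00000116815, chr1:116514535-116571039, minus strand), the ligand of CD2, stood at 13.5, 13.5 and 12.5 CPM in vehicle promyelocytes and at 26.1, 25.2 and 26.7 CPM with TNF-α. In granulocytes it stood at 31.8, 33.7 and 32.9 CPM with vehicle and at 105, 100.5 and 97.0 CPM with TNF-α. The order of the groups was that of *CD48*, again without overlap. Its log2 fold change was 1.01 (SE 0.0804, adjusted p = 1.04e-08) in promyelocytes and 1.60 (SE 0.0555, adjusted p = 3.15e-24) in granulocytes, differing by 0.63 (SE 0.0891, adjusted p = 5.60e-06).

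*SLAMF7* (ENSG00000026751, chr1:160739057-160754821, plus strand) was called in granulocytes. Promyelocytes had 2, 7 and 4 counts with vehicle and 4, 7 and 7 with TNF-α, and these groups overlapped. The ratio of the counts was 1.39, with an exact 95% interval of 0.645 to 3.09 for counting error. In granulocytes it stood at 2.5, 1.85 and 2.35 CPM with vehicle and at 59.6, 59.5 and 58.9 CPM with TNF-α, so that the TNF-α libraries lay within 1 CPM of each other and above all other libraries. The response was 4.72 (SE 0.0913, adjusted p = 2.58e-32), a 26.4-fold increase, and in the fit of all 12 libraries it exceeded that of promyelocytes by 4.27 (SE 0.600, adjusted p = 5.11e-06). *SLAMF7* and *CD48* lie beside each other, 27205 bases apart, in the SLAM gene cluster of chromosome 1. Along that cluster the granulocyte log2 fold changes were -2.11 for *SLAMF6*, 0.31 for *CD84*, 0.42 for *SLAMF1* (adjusted p = 0.435), 0.94 for *CD48*, 4.72 for *SLAMF7* and -0.36 for *CD244*, and *LY9*, between the last 2, had at most 1 count in any library. The response thus took both signs within the cluster.

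*LAMP3* (ENSG00000078081, chr3:183122213-183163839, minus strand), a lysosomal membrane glycoprotein, was nearly silent outside TNF-α granulocytes. Promyelocytes had 0 counts in all 3 vehicle libraries and 1, 6 and 2 counts with TNF-α. Granulocytes had 0, 0 and 1 counts with vehicle and 79, 98 and 68 counts with TNF-α. The granulocyte ratio was 292, with an exact 95% interval of 51.9 to 11583 for counting error, and the increase passed the test (adjusted p = 1.33e-15). *LAMP3* passed the filter on low counts there through its TNF-α libraries alone, so the call was bound to the high value. In promyelocytes the adjusted p was 0.112 when genes of every count were fitted and 0.0229 when all 12 libraries shared 1 fit. The difference of the responses did not pass the test (adjusted p = 0.902), and with no vehicle count in promyelocytes its size is not defined by these data.

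*FSCN1* (ENSG00000075618, chr7:5592823-5606655, plus strand), which bundles actin filaments in the processes of mature dendritic cells, showed the widest range of the 10 genes in CPM. In promyelocytes it stood at 103, 99.4 and 83.6 CPM with vehicle and at 178, 195 and 222 CPM with TNF-α. In granulocytes it stood at 5.12, 5.26 and 5.23 CPM with vehicle and at 634, 556 and 527 CPM with TNF-α. Vehicle granulocytes were the lowest group, 18.3-fold below vehicle promyelocytes by their means, and TNF-α granulocytes the highest. The log2 fold change was 1.08 (SE 0.0783, adjusted p = 2.57e-09) in promyelocytes and 6.76 (SE 0.0780, adjusted p = 3.00e-39) in granulocytes, a 2.12-fold and a 109-fold increase, and the responses differed by 5.72 (SE 0.13, adjusted p = 3.24e-21). The granulocyte response of *FSCN1* ranked 26 from the highest of 16944 genes, and those of *SLAMF7*, *CD274*, *ICOSLG* and *CD83* ranked 74, 80, 93 and 95.

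**Figure D3:**
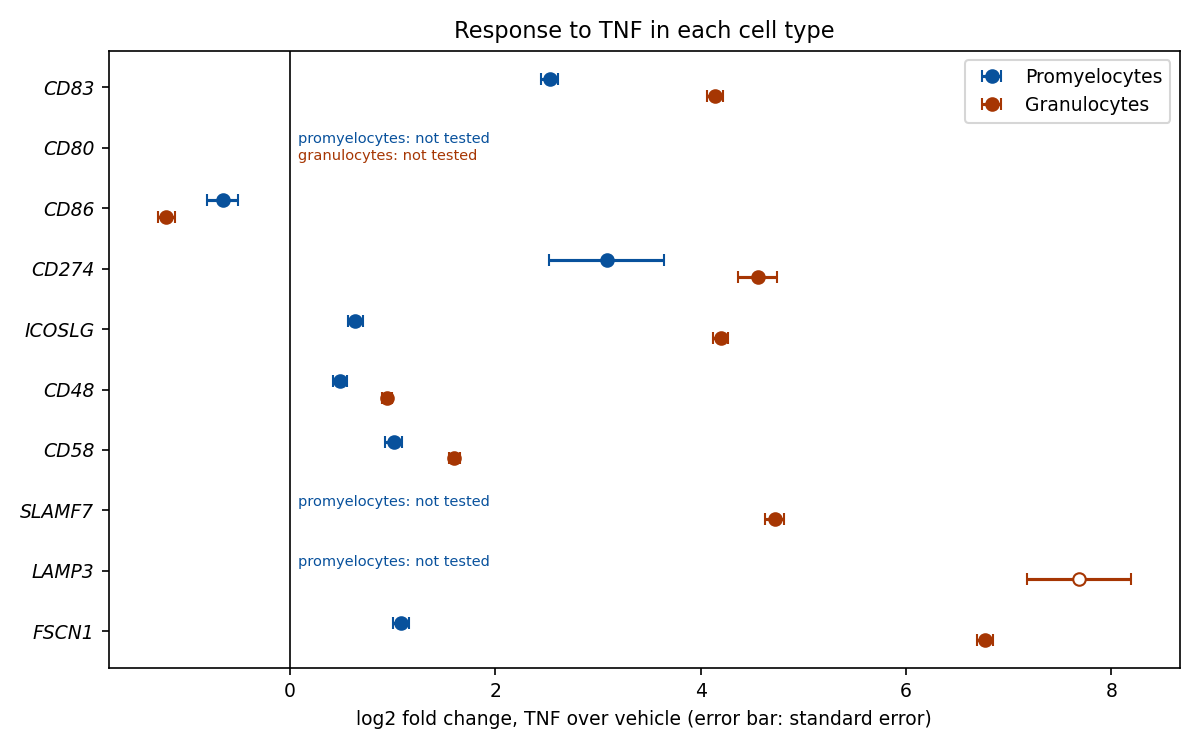
Log2 fold change of TNF-α over vehicle for the 10 genes in promyelocytes (blue) and granulocytes (brown), with the standard error as the bar and 3 libraries in each group. The open point for *LAMP3* rests on 1 vehicle count and depends on the prior count of the fit, and genes too low for the test are marked. *CD86* lies left of 0 in both cell types (-0.66 and -1.20), and *FSCN1* spans 1.08 to 6.76.

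The response differed between the cell types for 7 of the 9 genes tested over the 12 libraries, where 24.0% of all 18124 genes differed. Here too, cell type and experiment cannot be told apart. The difference was toward a higher value in granulocytes for *CD83*, *ICOSLG*, *CD48*, *CD58*, *SLAMF7* and *FSCN1*, and toward a lower one for *CD86*. Over all genes 2561 differences were positive and 1790 negative with TMM scaling, and 2128 and 2266 with DESeq2's size factors, while the median of all genes moved from 0.03 to -0.02, so the split over all genes depended on the scaling. By their means, vehicle granulocytes were below vehicle promyelocytes for *FSCN1*, *ICOSLG* (6.64-fold) and *CD83* (2.43-fold) and above them for *CD86* (4.99-fold), *CD48* (2.80-fold), *CD58* (2.5-fold), *CD274* (8.47-fold) and *SLAMF7* (14.5-fold). With TNF-α, granulocytes were above promyelocytes for each of these 8 genes. The vehicle ratios of *CD274* and *SLAMF7* rest on at most 3 and 7 counts in any vehicle promyelocyte library, so their size is poorly determined.

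Divided by exon length, the levels also changed order among the genes. In vehicle promyelocytes *FSCN1* led at 25.8 ± 2.75 CPM per kb (SD, n = 3), followed by *CD48* at 11.7 ± 0.855 and *CD58* at 7.36 ± 0.323 CPM per kb. In vehicle granulocytes *CD48* led at 32.7 ± 1.54 CPM per kb, followed by *CD58* at 18.4 ± 0.524 and *CD86* at 8.37 ± 0.442 CPM per kb, and *FSCN1* stood at rank 5 with 1.41 ± 0.0205 CPM per kb. In TNF-α granulocytes *FSCN1* led at 155 ± 15.1 CPM per kb, ahead of *CD48* at 63.5 ± 2.51 and *CD58* at 56.5 ± 2.19 CPM per kb. *CD86* had moved there from rank 3 to rank 7, at 3.67 ± 0.601 CPM per kb, a level within its spread of *CD274* at 3.39 ± 0.320 CPM per kb.

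**Figure D4:**
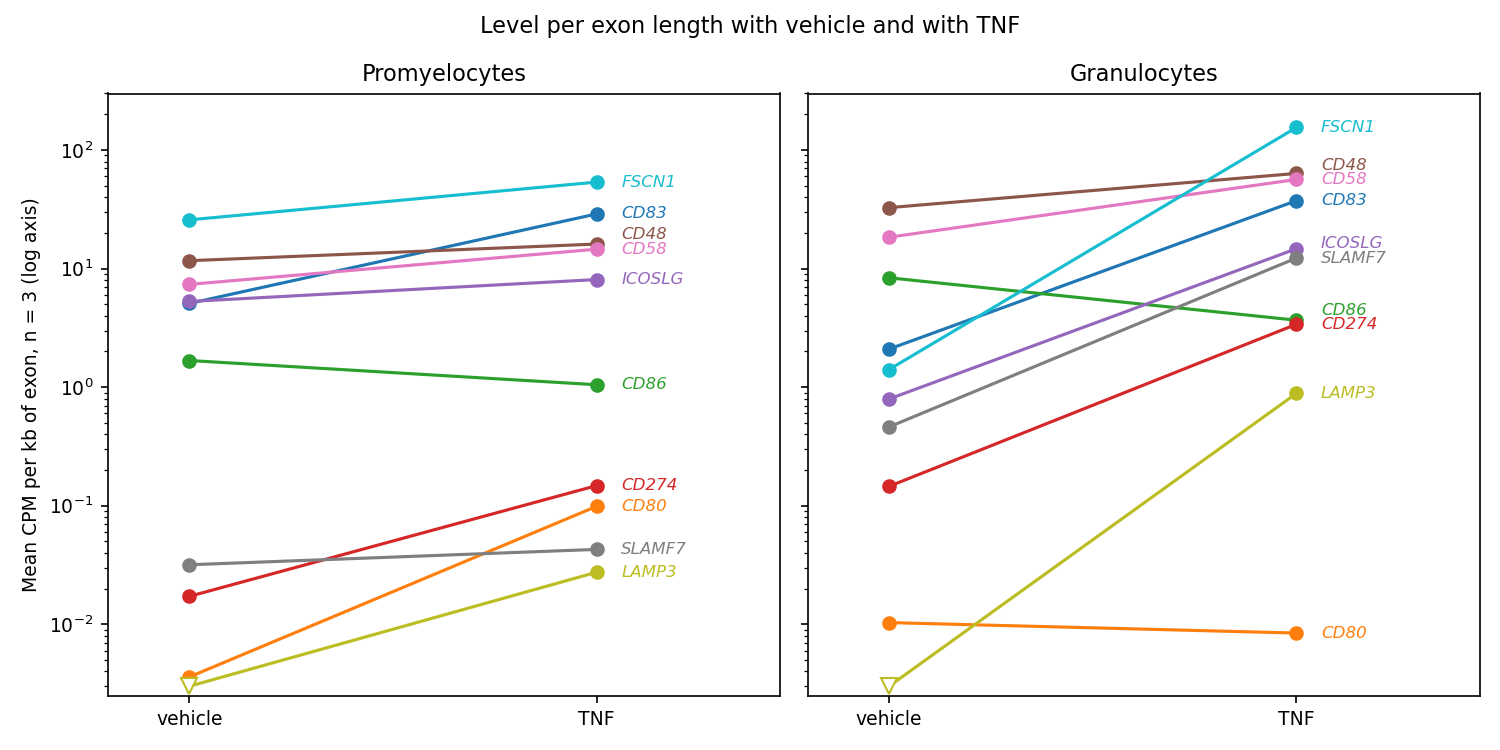
Mean level of the 10 genes per kb of exon, in CPM per kb on a log axis, with vehicle and TNF-α joined by a line for each cell type (n = 3 libraries per point). Open triangles mark *LAMP3* with vehicle, drawn at 0.003 because its means are 0 and 0.00293. The *FSCN1* line crosses above *CD48* in granulocytes (1.41 to 155), and the *CD86* line falls in both panels.

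Genes with a profile close to these were sought for the 4 genes that rose by a log2 value of at least 1 in both cell types, by the root mean square difference of log2 CPM centred in each cell type, over 12 libraries and 18124 genes. For *CD83* they were *RELB* (difference 0.200), a subunit of NF-κB, and *F3* (0.227), which encodes tissue factor. For *CD58* they were *EHD1* (0.0596) and *DCUN1D3* (0.0638), for *CD274* *CGN* (0.353) and *ADAMDEC1* (0.373), and for *FSCN1* *LAMP3* (0.587) and *IL1RN* (0.609), which encodes the interleukin-1 receptor antagonist. With at most 6 counts outside TNF-α granulocytes, the *LAMP3* profile depends on the prior count of 2 used for the log2 values. By this measure the neighbours of *CD58* were the closest of the 4 and those of *FSCN1* the least close. The measure is not scaled to the size of the response, so this order cannot be told apart from the sizes of the responses. *ADAMDEC1* was too low for the test in promyelocytes.

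The relatives of the B7 ligands changed in both directions. Of 11 B7 and butyrophilin relatives, 8 were tested in promyelocytes, of which 2 increased and 2 decreased. In granulocytes 7 were tested, of which 3 increased and 4 decreased. Of all genes tested, 8.15% increased and 6.65% decreased in promyelocytes, and 24.4% increased and 24.8% decreased in granulocytes. *BTN2A2*, a butyrophilin, rose by 1.35 (SE 0.145, adjusted p = 8.06e-07) in promyelocytes and by 1.71 (SE 0.104, adjusted p = 1.12e-16) in granulocytes on the log2 scale. *BTN2A1*, its relative, rose by 0.54 and 0.76. *VSIR*, which encodes the inhibitory B7 family protein VISTA, changed by -0.64 (SE 0.0727, adjusted p = 1.84e-06) and -0.71 (SE 0.0544, adjusted p = 7.54e-14), and its level was 497 ± 26.2 CPM in vehicle granulocytes (SD, n = 3). In granulocytes *NCR3LG1*, the ligand of the natural killer receptor NKp30, rose by 0.87 (SE 0.0684), and *BTN3A3* changed by -0.83 (SE 0.106).

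The costimulatory ligands and receptors of the TNF superfamily were tested for 5 of 8 genes in promyelocytes, with 3 increased and 1 decreased. In granulocytes 6 were tested, with 3 increased and 3 decreased. The shares over all genes were 8.15% increased and 6.65% decreased in promyelocytes, and 24.4% and 24.8% in granulocytes. *CD40*, the receptor through which T cells activate antigen-presenting cells, went from 4, 2 and 8 counts to 324, 332 and 440 in promyelocytes. In granulocytes it went from 174, 164 and 206 counts to 3680, 4450 and 3720. Its log2 fold change was 6.28 (SE 0.236, adjusted p = 7.43e-14) and 4.69 (SE 0.0712, adjusted p = 9.88e-36). In promyelocytes it passed the filter on low counts through its TNF-α libraries alone, so the call there was bound to the high value. *CD40* started from almost nothing in promyelocytes and from a higher level in granulocytes, and its response was lower in granulocytes by a log2 value of -1.56 (SE 0.335, adjusted p = 0.000972). *CD70*, the ligand of CD27, had 2, 3 and 2 counts with vehicle and 52, 60 and 68 with TNF-α in promyelocytes, where it too passed the filter through the TNF-α libraries alone. In granulocytes it had 46, 53 and 59 counts with vehicle and 28, 31 and 14 with TNF-α, a change of -0.88 (SE 0.274, adjusted p = 0.00774). The responses differed by -5.48 (SE 0.486, adjusted p = 2.12e-09), in a fit whose filter *CD70* passed through the granulocyte vehicle libraries as well. *TNFSF9*, the ligand of 4-1BB, rose by 1.65 and 0.35, and *TNFSF15* in granulocytes went from 2, 4 and 10 counts to 19, 38 and 35, and entered the test through the TNF-α libraries.

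Of the 10 further SLAM and CD2 family genes, 5 were tested in each cell type. In promyelocytes 1 increased and 1 decreased, against 8.15% and 6.65% of all genes. In granulocytes 2 increased and 2 decreased, against 24.4% and 24.8% of all genes. Counts over so few genes are given as a description only. *SLAMF8*, a myeloid member of the family, rose in granulocytes by 2.93 (SE 0.0925, adjusted p = 1.64e-25), and *SLAMF6* changed there by -2.11 (SE 0.257, adjusted p = 9.32e-09). *CD84* changed by -0.20 and 0.31 and *CD244*, the receptor of CD48, by 0.37 and -0.36, each past the threshold in both cell types with opposite signs. Of the 6 receptors to which the 10 genes' products bind on T cells and natural killer cells, *CD28*, *CTLA4* and *ICOS* were at 0 counts in every library, and *PDCD1*, which encodes PD-1, was at 0 in 9 libraries and at 33, 15 and 6 counts in TNF-α granulocytes, too low for the test. In all, 2 of the 6 were tested in promyelocytes and 1 in granulocytes, and *CD244* was called in both. The other tested in promyelocytes was *CD2*, with 26, 21 and 14 counts for vehicle and 7, 13 and 11 for TNF-α. It was not called there (-0.93, SE 0.405, edgeR's adjusted p = 0.138) and was at 0 counts in every granulocyte library.

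Genes of dendritic cell maturation mostly increased where they could be tested, but part of the list was near absent. In TNF-α granulocytes 7 of the 23 genes had at most 3 counts in every library. They were *CCR7*, *CD200*, *MARCKS*, *IDO1*, *CCL17*, *CCL19* and *IL15*. In promyelocytes *CCR7* was tested and not called (-0.32, SE 0.309, edgeR's adjusted p = 0.560). Over all genes tested, 8.15% increased in promyelocytes, while 24.4% increased and 24.8% decreased in granulocytes. Of all 23 genes listed, 16 were tested in each cell type. Among the 16, 11 increased in promyelocytes and the other 5 were not called, while 14 increased and 1 decreased in granulocytes. Of these, *CD40*, *EBI3*, *IL12B* and *IL4I1* had 9 counts or fewer in every vehicle promyelocyte library and passed the filter through their TNF-α libraries, so their place in the count required a high value there. The same holds in granulocytes for *EBI3*, *IL4I1* and *IL12B*, with 10 counts or fewer in every vehicle library. Between the cell types, the response of 6 of the listed genes was higher in granulocytes and that of 5 lower, where 24.0% of all genes differed. *EBI3*, a subunit of interleukin-27, had at most 3 counts in vehicle promyelocytes and 186 to 217 with TNF-α, and at most 4 in vehicle granulocytes and 871 to 1038 with TNF-α. *IL12B*, the shared subunit of interleukin-12 and interleukin-23, had 2 to 6 and 275 to 306 counts in promyelocytes, and 7 to 10 and 1680 to 2552 in granulocytes. *BIRC3*, an inhibitor of apoptosis in the TNF receptor complex, rose by 5.58 and 8.31, and *TRAF1*, an adaptor of TNF receptors, by 4.51 and 7.20. Without TNF-α granulocyte replicate 2, 13 increased and 1 decreased. *CD40* and *RELB* are among these 23 genes, and the list includes known targets of NF-κB.

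The genes of the MHC class II pathway, by which antigen is presented to helper T cells, were barely expressed. Of 12 genes, 10 had at most 3 counts in each vehicle promyelocyte library, and the summed level was 1.40 to 1.90 CPM there, 1.86 to 2.61 CPM in TNF-α promyelocytes, 1.85 to 3.05 CPM in vehicle granulocytes and 2.21 to 8.95 CPM in TNF-α granulocytes. *CIITA*, their master activator, went from 1 count in each vehicle promyelocyte library to 27, 17 and 22 counts with TNF-α, and entered the test through the latter. In granulocytes *CD74*, the invariant chain, passed the test at 2.48 (SE 0.542, adjusted p = 0.000214), with 3, 2 and 22 counts for vehicle and 28, 99 and 8 for TNF-α. The call rested on replicate 2 of the TNF-α group, which also held 49 counts of *HLA-DRA* and 16 of *HLA-DPA1* against at most 3 and 1 in any other library. Without that library *CD74* was at 1.36 (SE 0.598, adjusted p = 0.0636) by edgeR, and 8 of the 9 costimulatory and activation genes tested still increased and 1 decreased. What set that library apart was not tested.

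The dendritic lineage markers were partly present. Of 10 listed, *CLEC9A*, *XCR1* and *FCER1A*, which define subsets of dendritic cells, had at most 3 counts in every library. The list summed to 21.7 to 23.4 CPM in vehicle promyelocytes, 26.1 to 30.5 CPM in TNF-α promyelocytes, 73.5 to 79.0 CPM in vehicle granulocytes and 147 to 161 CPM in TNF-α granulocytes. Its sum therefore rose along with most of the 10 genes described, and its part in their responses was not tested. In granulocytes most of the sum was *ZBTB46*, at a mean of 54.0 CPM with vehicle and 127 CPM with TNF-α. *ZBTB46*, a transcription factor of classical dendritic cells, rose by 0.58 (SE 0.109, adjusted p = 0.000736) in promyelocytes and by 1.21 (SE 0.0555, adjusted p = 1.92e-20) in granulocytes, and *BATF3*, another, rose in granulocytes by 1.94 (SE 0.308, adjusted p = 1.77e-06). In granulocytes *CLEC10A* rose by 0.73 and *CD1A* changed by -0.90, so 4 of the 6 markers tested there increased and 2 decreased. The shares over all genes in granulocytes were 24.4% and 24.8%. Of the monocyte and macrophage markers, *CSF1R*, the receptor of macrophage colony-stimulating factor, was expressed at 49.7 ± 1.18 CPM in vehicle granulocytes and changed with TNF-α by -0.64 (SE 0.0610, adjusted p = 3.02e-11), against 3.99 ± 0.337 CPM in vehicle promyelocytes (SD, n = 3 libraries of each, edgeR). *CD14* had 2 to 12 counts per library, and *CD163*, *MRC1*, *MSR1* and *MARCO* had at most 3. The B cell marker *MS4A1* was at 0 in every library, and the 6 B cell markers summed to 11.2 to 18.7 CPM. The T cell markers summed to 73.0 to 86.0 CPM in promyelocytes and 277 to 306 CPM in granulocytes, most of it *CD4*, which myeloid cells also express, while *CD3G* and *CD8A* had at most 3 counts in every library. Of the others, *CD3E* had 88 to 117 counts in vehicle granulocytes and at most 11 in promyelocytes, and *TRAC* had 114 to 175 counts in promyelocytes and at most 3 in granulocytes.

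**Figure D5:**
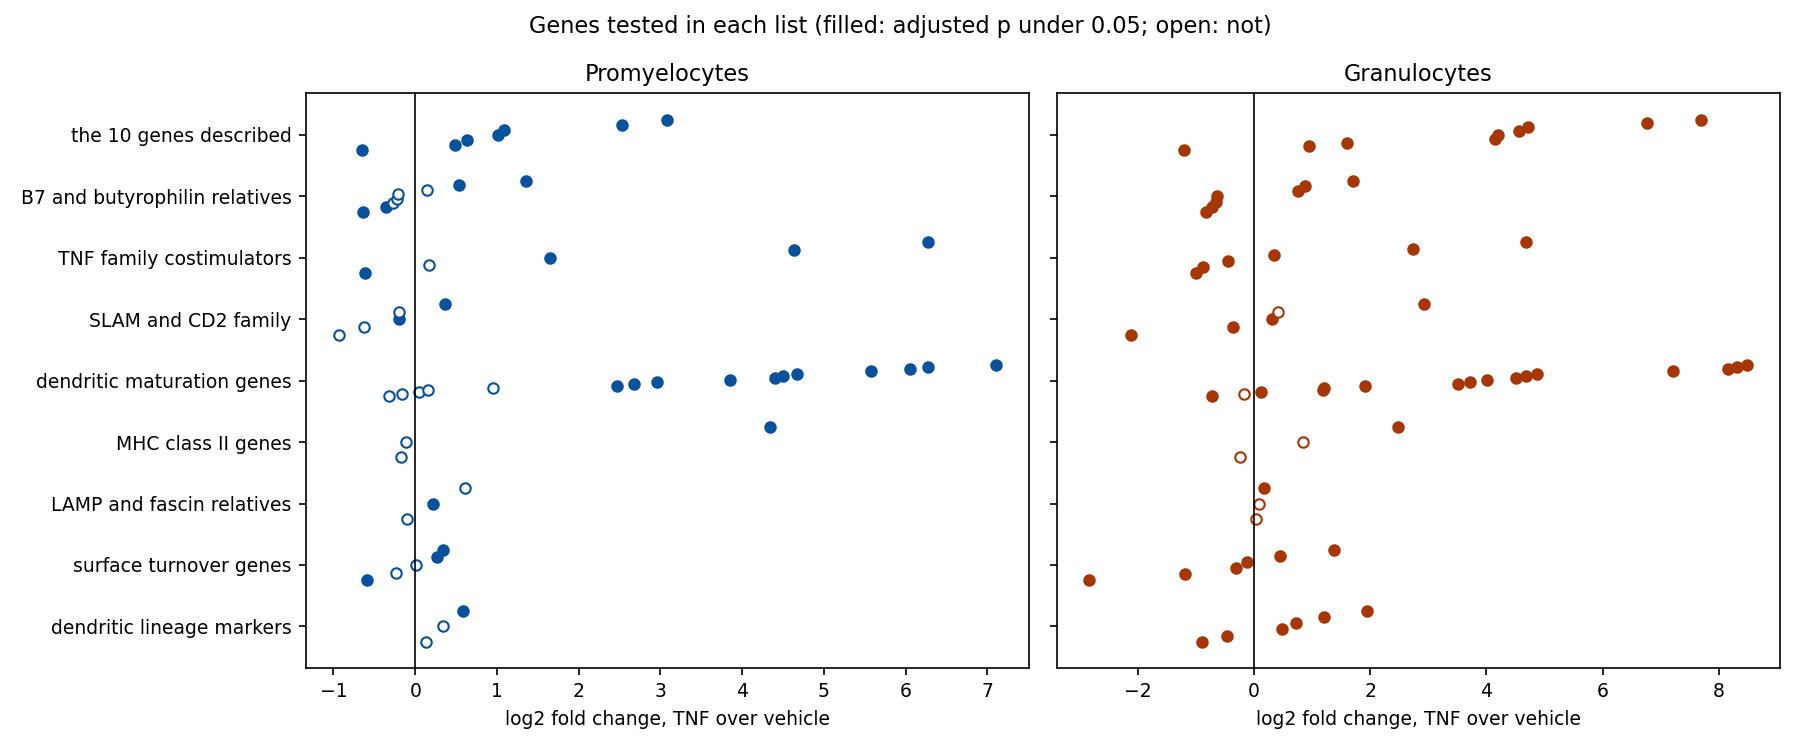
Log2 fold change of TNF-α over vehicle for every tested gene of each list, 1 row per list and 1 point per gene, in promyelocytes (left) and granulocytes (right). Filled points passed the test and open points did not. The dendritic maturation genes reach 7.11 and 8.48, while the B7 and butyrophilin relatives stay between -0.83 and 1.71.

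Genes that control how long the ligands stay on the surface also changed at the RNA level. Of 6 listed, 2 increased and 1 decreased among 5 tested in promyelocytes, where 8.15% and 6.65% of all genes did. In granulocytes 2 increased and 4 decreased, or 3 without TNF-α replicate 2. There, 24.4% of all genes increased and 24.8% decreased, so calls were frequent outside this list too. *MARCHF1*, a ubiquitin ligase that removes CD86 and MHC class II from the surface, fell in granulocytes from 327, 384 and 327 counts to 37, 53 and 34 (log2 fold change -2.83, SE 0.141, adjusted p = 3.15e-19), and had at most 2 counts in promyelocytes. *MARCHF8*, a related ligase, changed in granulocytes by -1.19 (SE 0.0707, adjusted p = 5.44e-17). *ADAM17*, a protease that sheds surface proteins, rose by 0.34 (SE 0.0611, adjusted p = 0.000498) and 1.39 (SE 0.0496, adjusted p = 8.97e-24). *CMTM4*, which protects PD-L1 from degradation, changed by -0.59 (SE 0.111, adjusted p = 0.000812) and -0.30 (SE 0.0578, adjusted p = 3.96e-05). *CMTM6*, which protects PD-L1 too, changed in the other direction, by 0.26 (SE 0.0737, adjusted p = 0.0201) and 0.45 (SE 0.0479, adjusted p = 4.82e-10). Both RNA of *CD86* and RNA of its ligase *MARCHF1* were thus lower in TNF-α granulocytes, and surface protein was not measured here. Of 6 relatives of *LAMP3* and *FSCN1*, 3 were tested in each cell type and only *LAMP2*, a widespread lysosomal membrane protein, was called, at 0.22 (SE 0.0562, adjusted p = 0.0115) and 0.18 (SE 0.0499, adjusted p = 0.00355).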

How the data were processed

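HL-60/S4 RNA was depleted of ribosomal RNA and sequenced in 12 libraries, 3 per group, each from its own flask. The authors aligned reads with STAR 2.5.3a to hg38 and deposited raw counts of read pairs per gene, made with featureCounts 1.5.2 on GENCODE 27 with stranded counting of primary alignments. A read that fits several places was thus counted at its primary alignment only.

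The counts were analysed as deposited. Genes were filtered with filterByExpr (minimum count 10, minimum total 15), scaled by TMM and tested with edgeR 4.0.16 (quasi-likelihood, R 4.3.3), within each cell type, and over the 12 libraries for the difference of the responses, with Benjamini-Hochberg adjustment over all genes tested. DESeq2 1.42.0 served as an alternative. Counts too low for the test were compared as sums, with exact conditional intervals. Levels are CPM, per kb of exon where genes are compared. Symbols matched 57532 of 58288 identifiers.

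The 10 genes and all lists were chosen with earlier results of these data known. Named genes were the 10, up to 4 genes per list with the largest change among those called in either cell type, defining markers, near-identical copies, and the 2 genes with the closest profile for each gene that rose by a log2 value of at least 1 in both cell types. The class II genes and *CD4*, *CD3E*, *TRAC*, *LY9*, *SLAMF1*, *PDCD1LG2*, *PDCD1*, *IL4I1*, *VSIR*, *CMTM6* and *CSF1R* were named after their values were seen. So were *CD2*, *CCR7*, *CD200*, *MARCKS*, *IDO1*, *CCL17*, *CCL19* and *IL15*. Replicate numbers were not used to pair libraries.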

Additional observations from a re-analysis of the deposited data

Results flagged for a closer look

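Each gene here had a TNF-α response that differed between the cell types by the test of the difference itself, given as the granulocyte response minus the promyelocyte response on the log2 scale with edgeR's adjusted p. The difference was 5.72 for *FSCN1* (adjusted p = 3.24e-21), 4.27 for *SLAMF7* (5.11e-06), 3.59 for *ICOSLG* (2.35e-18), 1.65 for *CD83* (1.67e-10), 0.63 for *CD58* (5.60e-06), 0.49 for *CD48* (7.07e-05) and -0.51 for *CD86* (0.0266). Cell type and experiment cannot be told apart in these differences. *ICOSLG* may share reads with its near-identical copy, and the sum of both gave 3.61.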

How the results depend on the processing

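With DESeq2's size factors, no filter, DESeq2's own test, a replicate block or a correction for GC content and length, no response changed direction. DESeq2's own test called 5 genes increased in promyelocytes, since *CD274* had no adjusted p there. No filter gave 7, with *CD80* added, as did a shared fit of 12 libraries, with *LAMP3* added. Leaving out 1 library gave 6 increased in promyelocytes and 8 in granulocytes in every fit, and 6 to 7 differences between cell types, *CD86* being the one lost (-0.63 to -0.41).

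The replicate number did not pair libraries: same-numbered vehicle and TNF-α libraries had deviations correlated at -0.105 to -0.00594. With the replicate block, 6 genes increased and 1 decreased in promyelocytes, 8 and 1 in granulocytes, and 7 responses differed, the *CD86* difference at an adjusted p of 0.0383. The block moved calls over all genes from 1324 and 1081 to 1012 and 821 in promyelocytes. Depth limited *CD80*, *LAMP3* and, in promyelocytes, *SLAMF7* and *CD274*.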
